A study of Homo sapiens with 3 samples.

Results

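The MAGE (melanoma antigen) genes were examined in polyA RNA of 3 libraries that form a single condition, each labelled HepG2 and WT (wild type). HepG2 is a cell line from a human liver cancer. RNA-seq counts the cDNA fragments that fall on each gene, and levels are given here in TPM, which is scaled for gene length and for the size of the library. The genes were chosen by name alone, as MAGE followed by a letter from A to H, a number and at most 1 further letter, on whole chromosomes and the mitochondrial genome. Of the 39320 gene rows there, 34 met this rule. They were 26 type I genes, with 13 named MAGEA, 10 MAGEB and 3 MAGEC, and 8 type II genes, with 4 named MAGED, 2 MAGEE, 1 MAGEF and 1 MAGEH. Of the 34, 33 lie on chromosome X, and MAGEF1 lies on chromosome 3. RefSeq lists 33 of them as protein-coding and names the other, MAGEA5, as the transcribed pseudogene MAGEA5P.

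MAGE proteins share a conserved MAGE homology domain, and many of them bind a RING-type ubiquitin ligase and alter which proteins it marks for degradation. Type I genes are cancer-testis genes: in the adult they are active mainly in male germ cells and placenta, are kept silent elsewhere with the help of promoter DNA methylation, and come on again in many tumors, where peptides of their proteins can be presented to T cells. Type II genes are not restricted to germ cells and are active in many normal tissues.

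The labels give no treatment, and nothing in them says whether the 3 libraries came from separate cultures, so the spread between them may be technical. The labelled cell type was checked against its defining genes. All 10 genes of a list of hepatocyte and liver cancer markers, among them ALB and AFP, were below 1 TPM in every library. Of all gene rows, 33.8% reached that level in each, and of RefSeq protein-coding genes 59.5% did. Of the 10 markers, 7 were listed at 0, beside 40.7% of all gene rows. The summed level of the 10 markers was 0.0571 to 0.244 TPM per library. HepG2 cells are known for making albumin, apolipoproteins and alpha-fetoprotein, so these values go against the label, and the levels below are those of the libraries labelled HepG2, whatever cells they hold. All 6 genes of a list that every cell uses had at least 10 TPM in every library. The tables give no read counts, so depth is unknown, and 1 mitochondrial tRNA row took 16.9% to 17.2% of all TPM, a share that was nearly the same in each library.

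Only 5 of the 34 MAGE genes, the type I genes MAGEA1, MAGEA3 and MAGEA6 and the type II genes MAGED2 and MAGEF1, reached 1 TPM in all 3 libraries. They make up 14.7% of the family, while 33.8% of all gene rows reached 1 TPM in every library. Among RefSeq protein-coding genes the share was 59.5%, and on chromosome X it was 45.4%, against 5 of 33 protein-coding MAGE genes (15.2%) and 4 of 32 on chromosome X (12.5%). By type, 3 of 26 type I genes (11.5%) and 2 of 8 type II genes (25.0%) reached 1 TPM. The family was split by a wide gap, since the lowest value of an expressed member was 21.1 TPM, for MAGEA3 in replicate 1, and the highest value of any other member was 0.395 TPM, for MAGEA2B in replicate 2. As in any bulk sample, a low level can mean fewer cells with the RNA or less RNA per cell, and these cannot be told apart.

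**Figure D1:**
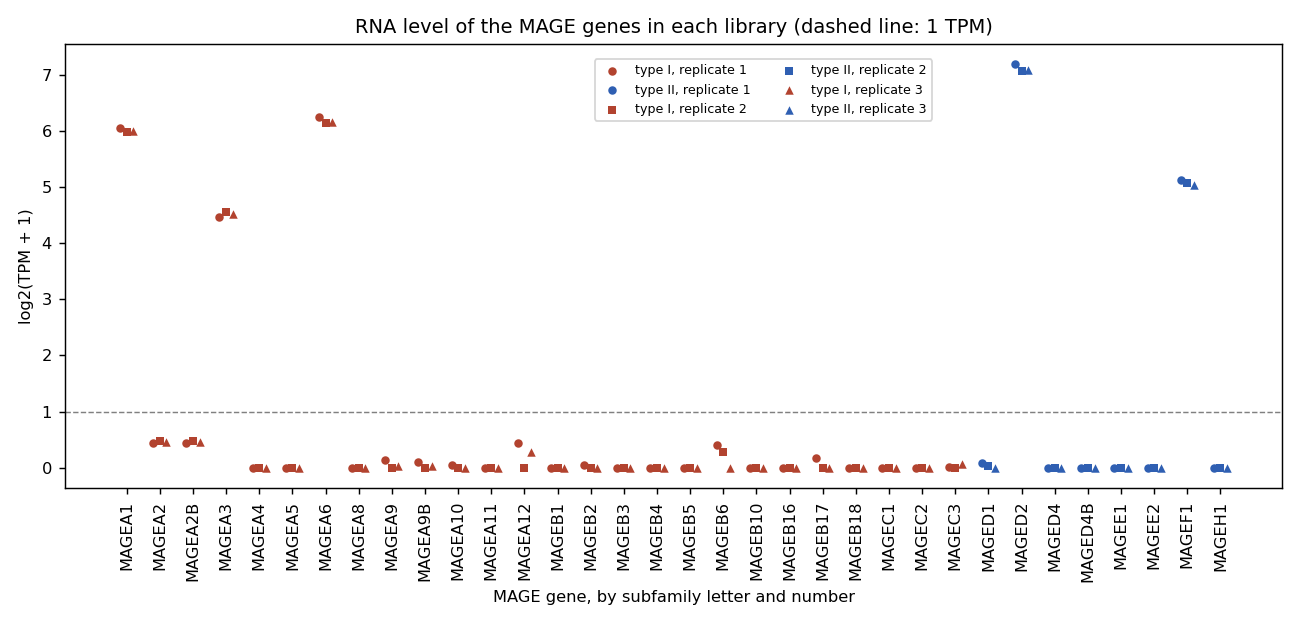
Level of each of the 34 MAGE genes as log2(TPM + 1) on the vertical axis, with genes by subfamily and number on the horizontal axis, circles, squares and triangles for replicates 1, 2 and 3, red for type I and blue for type II. MAGEA1, MAGEA3, MAGEA6, MAGED2 and MAGEF1 lie far above the dashed line at 1 TPM, and all others lie below it in all 3 libraries.

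MAGED2 had the highest level of the family. Its product is needed for salt transport in the fetal kidney, and mutations of the gene cause a transient form of Bartter syndrome. The gene spans chrX:54807745-54816015 on the plus strand of GRCh38 and has 13 exons in its canonical transcript. It had 145, 133 and 135 TPM in replicates 1, 2 and 3, a mean of 138 ± 6.14 TPM (SD, n = 3). It exceeded 92.4% of the 13753 expressed genes, those whose mean over the libraries was 1 TPM or more.

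MAGEA6 was next. It and MAGEA3 encode nearly the same protein, which joins TRIM28 in a ubiquitin ligase that marks the catalytic subunit of the kinase AMPK. MAGEA6 spans chrX:152766136-152769729 on the minus strand and had 74.5, 69.2 and 70.1 TPM in replicates 1, 2 and 3, a mean of 71.3 ± 2.82 TPM (SD, n = 3). Its level lay above 84.6% of expressed genes.

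MAGEA1 encodes the antigen from which the family was discovered, through the T cells of a melanoma patient. It spans chrX:153179284-153183880 on the plus strand and had 65.6, 62.2 and 63.0 TPM in replicates 1, 2 and 3, a mean of 63.6 ± 1.74 TPM (SD, n = 3). Its highest library was below the lowest library of MAGEA6.

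MAGEF1, which directs a ubiquitin ligase with NSMCE1 to a factor of iron-sulfur cluster assembly, was the only expressed member outside chromosome X. It is a single-exon gene at chr3:184710367-184712048 on the minus strand, and it had 33.7, 32.7 and 32.0 TPM in replicates 1, 2 and 3, a mean of 32.8 ± 0.892 TPM (SD, n = 3). MAGEA3, at chrX:152698742-152702347 on the plus strand, had 21.1, 22.4 and 21.8 TPM in the same libraries, a mean of 21.8 ± 0.670 TPM (SD, n = 3). MAGEA3 was thus the lowest of the expressed members and still lay above 59.2% of expressed genes.

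The order MAGED2, MAGEA6, MAGEA1, MAGEF1, MAGEA3 was the same in each library. Within a library, MAGED2 had 1.93 ± 0.00962 times the TPM of MAGEA6, MAGEA6 had 1.12 ± 0.0136 times that of MAGEA1, MAGEA1 had 1.94 ± 0.0341 times that of MAGEF1, and MAGEF1 had 1.51 ± 0.0800 times that of MAGEA3 (SD, n = 3). The values of neighbours in this order did not overlap between libraries. The size of these steps depends on the measure. By coverage, the mean read depth over a gene, the order was the same, but MAGED2 had 1.41 ± 0.00414 times the value of MAGEA6, MAGEA6 1.08 ± 0.0125 times that of MAGEA1 and MAGEF1 3.02 ± 0.160 times that of MAGEA3 (SD, n = 3).

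The expressed members varied little between libraries. Their coefficients of variation were 2.72% for MAGEF1, 2.74% for MAGEA1, 3.08% for MAGEA3, 3.95% for MAGEA6 and 4.46% for MAGED2, beside a median of 4.88% over the 8419 gene rows with a mean of at least 10 TPM. Of these 5 genes, 0 had a range of log2(TPM + 1) above 1 over the libraries, and of all 8419 rows 0.273% did. This range was counted without a test.

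The main comparison was between type I and type II. Summed over all members, type I genes had 163, 155 and 156 TPM in replicates 1, 2 and 3, and type II genes had 179, 166 and 167 TPM. Type II was thus higher in each library, by a small margin. The log2 ratio of the sums, type I to type II with a pseudocount of 1, was -0.11 ± 0.02 (SD, n = 3) and below 0 in 3 of 3 libraries. Flipping the signs of the 3 ratios in all ways, an exact permutation test taken as two-sided, gave p = 0.25, the smallest p that 3 libraries allow, so the difference cannot reach significance in this design. The direction depends on the measure: by coverage in place of TPM, the ratio was 0.16 ± 0.01 (SD, n = 3), with type I higher in each library.

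Almost all of this RNA came from the 5 expressed members, which held 99.6 ± 0.124% of the family's TPM (SD, n = 3). MAGED2 alone held 41.9 ± 0.436%, MAGEA6 21.7 ± 0.121%, MAGEA1 19.4 ± 0.147%, MAGEF1 9.98 ± 0.178% and MAGEA3 6.64 ± 0.419% (SD, n = 3). Type I genes together held 48.1 ± 0.323% (SD, n = 3). The type I sum was a MAGEA sum, with 158 ± 4.14 TPM for MAGEA, 0.232 ± 0.244 TPM for MAGEB and 0.0197 ± 0.0238 TPM for MAGEC (SD, n = 3). The median of the member means was 0.00488 TPM in type I and 0 TPM in type II, and 0.0619 TPM over all gene rows.

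**Figure D2:**
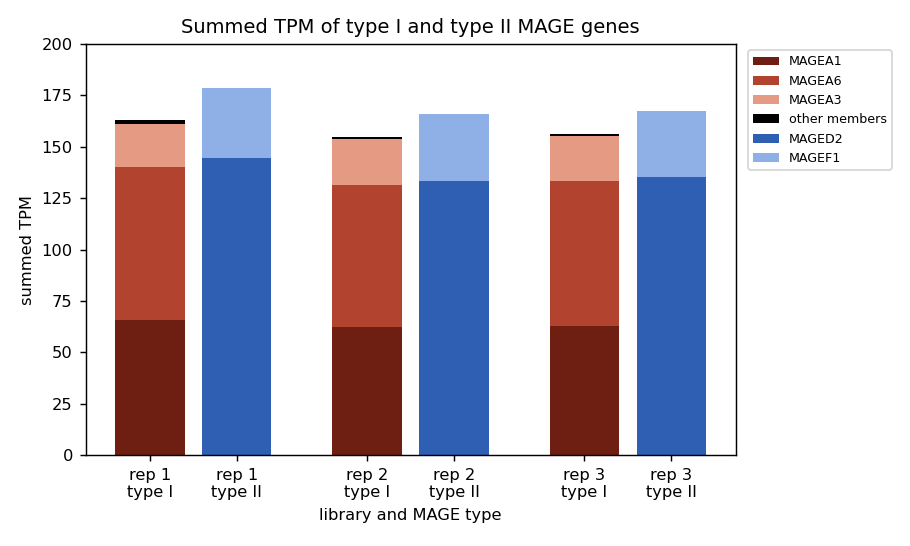
Summed TPM on the vertical axis for type I and type II MAGE genes in each library, with each bar stacked by gene and the members below 1 TPM in black. Type I bars reach 155 to 163 TPM and consist of MAGEA1, MAGEA6 and MAGEA3, while type II bars reach 166 to 179 TPM and are mostly MAGED2.

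The other 29 members were below 1 TPM in every library. Of these, 18 were listed at 0 in all 3, which is 52.9% of the family beside 40.7% of all gene rows, noncoding ones included. They were MAGEA4, MAGEA5, MAGEA8, MAGEA11, MAGEB1, MAGEB3, MAGEB4, MAGEB5, MAGEB10, MAGEB16, MAGEB18, MAGEC1, MAGEC2, MAGED4, MAGED4B, MAGEE1, MAGEE2 and MAGEH1. Since depth is unknown, a listing at 0 says that the RNA was not detected and not that it was absent. MAGEC2, another partner of TRIM28, and MAGEA4, which binds RAD18, were among them.

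A further 11 members had a value above 0 that stayed below 1 TPM. MAGEA2 and MAGEA2B were above 0 in all 3 libraries. MAGEA2 had 0.359, 0.394 and 0.382 TPM in replicates 1, 2 and 3, and MAGEA2B had 0.364, 0.395 and 0.382 TPM. No 150-base stretch separates these copies, so their levels cannot be told apart. Another 6 members, MAGEA9, MAGEA9B, MAGEA12, MAGEB6, MAGEC3 and MAGED1, were above 0 in 2 libraries, and 3, MAGEA10, MAGEB2 and MAGEB17, in 1. MAGEA12 had 0.352, 0 and 0.219 TPM, and MAGEB6 had 0.325, 0.209 and 0 TPM, so that the spread of each was about as large as its mean.

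Among the 8 type II genes, the 2 that reached 1 TPM (25.0%) stand beside 33.8% of all gene rows and 59.5% of RefSeq protein-coding genes. MAGED4 and MAGED4B, both at 0, are copies of each other. MAGED1, an adaptor of the p75 neurotrophin receptor, had 0.0571, 0.0177 and 0 TPM in replicates 1, 2 and 3. Within the same libraries its relative MAGED2 had 133 to 145 TPM.

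Several members are copies of each other, which limits what short reads can assign. The reads were 150 bp long, so every stretch of 150 bases in the canonical GENCODE v44 transcript of each member was searched for in the transcripts of all other genes. In 23 of 34 members no such stretch was shared, including MAGEA1, MAGED2 and MAGEF1. MAGEA2 shared 100% of its stretches with MAGEA2B, MAGED4 shared 99.0% with MAGED4B, and MAGEA9 and MAGEA9B shared 86.8% with each other. The values of the members in these pairs are thus uncertain one by one. MAGEA3 and MAGEA6 shared 30.1% of stretches, with each other only, so 69.9% of the positions can place a 150-base read on 1 of them. How the authors' quantification treated reads that match several places is not given in the sources used here.

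**Figure D3:**
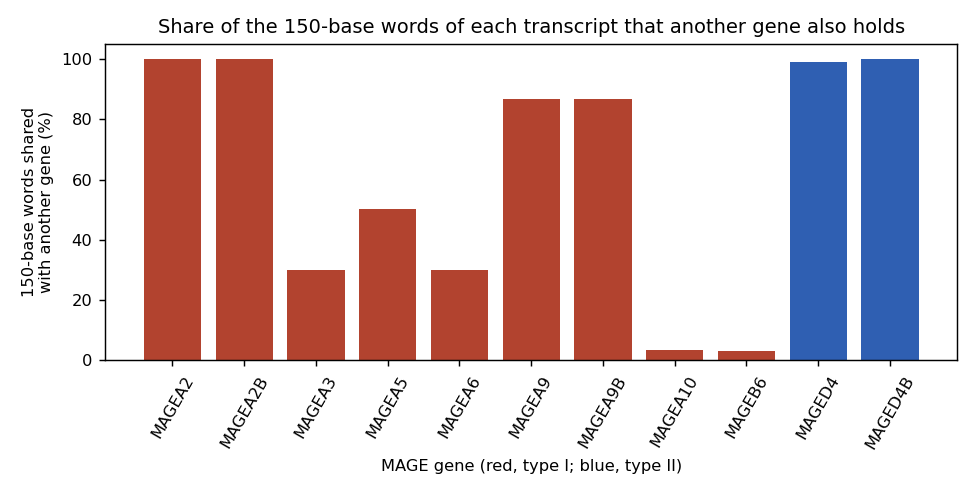
Percentage of 150-base stretches of the canonical transcript that are also found in a transcript of another gene, on the vertical axis, for the 11 members with any shared stretch, red for type I and blue for type II. MAGEA2, MAGEA2B, MAGED4 and MAGED4B are at or near 100%, MAGEA3 and MAGEA6 are at 30.1%, and the other 23 members, not drawn, are at 0%.

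The coding sequences show the same relations. Those of MAGEA2 and MAGEA2B, of MAGEA9 and MAGEA9B, and of MAGED4 and MAGED4B were identical. MAGEA3 and MAGEA6 differed at 18 of 942 positions (98.1% identity). The closest relative of MAGEA1 was MAGEA4, which was listed at 0, with 85.4% identity, and MAGEA12 shared 93.0% with MAGEA2. Of the expressed members, the type II genes were further from their closest relatives in the family than the type I genes. The closest coding sequence to that of MAGED2 was MAGED4 at 52.7%, and to that of MAGEF1 it was MAGEB17 at 53.5%. Over all pairs, the median identity was 56.9% within type I, 41.6% within type II and 34.5% between types. Gaps in the alignment counted as differences. Unequal coding lengths therefore lower these identities, and they do not measure relatedness alone.

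Windows of 30 bases from the coding sequences of MAGEA3 and MAGEA6 are shown because such positions separate the reads of this pair. They are written 5′ to 3′ on the strand of the gene, with the bases that differ in capitals, and positions are counted from 1 at the start codon. The windows cover coding positions 462 to 491, 591 to 620 and 800 to 829 and lie, in MAGEA3, at chrX:152701294-152701323, chrX:152701423-152701452 and chrX:152701632-152701661 and, in MAGEA6, at chrX:152767160-152767189, chrX:152767031-152767060 and chrX:152766822-152766851 (hg38, plus strand for MAGEA3 and minus strand for MAGEA6). The substitutions they hold, MAGEA3 base given before the MAGEA6 base, are A466G and G467A, then G595A, C601T and G613A, then T804C and A810G.
MAGEA3, positions 462 to 491: ttccAGttccttgcagctggtctttggcat
MAGEA6, positions 462 to 491: ttccGAttccttgcagctggtctttggcat
MAGEA3, positions 591 to 620: caagGcaggcCtcctgataatcGtcctggc
MAGEA6, positions 591 to 620: caagAcaggcTtcctgataatcAtcctggc
MAGEA3, positions 800 to 829: catgTtatgaAttcctgtggggtccaaggg
MAGEA6, positions 800 to 829: catgCtatgaGttcctgtggggtccaaggg

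The 308 coding bases before the substitution C309T are the same in both genes, so a read that falls wholly in that part fits either.

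MAGEA6 was higher than MAGEA3 in every library. By TPM it was 3.53, 3.08 and 3.21 times as high in replicates 1, 2 and 3, a mean of 3.27 ± 0.229 (SD, n = 3). By coverage it was 6.83, 5.97 and 6.22 times as high, a mean of 6.34 ± 0.440 (SD, n = 3). FPKM, the authors' other level scaled for gene length and library size, is proportional to TPM within a library. The gap between the measures thus restates a low ratio of coverage to FPKM for MAGEA3 and adds nothing on its cause. Relative to the highest such ratio in a library, MAGEA3 was at 0.498, MAGED2 at 0.702, MAGEA6 at 0.965 and MAGEA1 and MAGEF1 at 1.00, each as the mean of 3 libraries. The part that shared reads played in these values was not tested.

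MAGEA3 and MAGEA6 mark the outer ends of a stretch of chromosome X that runs over 70988 bp and holds 9 gene rows. Its arrangement is mirrored, with MAGEA3 and MAGEA2B on the plus strand in its first part and MAGEA2 and MAGEA6 on the minus strand in its last. CSAG2 and CSAG3, cancer-testis genes, begin beside MAGEA2B and MAGEA2, and CSAG1 beside MAGEA12, while CSAG4 overlaps MAGEA12 on the same strand. The 7 rows between the expressed ends were low: CSAG2 had 0.217 ± 0.0466, CSAG1 0.678 ± 0.332 and CSAG3 0.553 ± 0.266 TPM (SD, n = 3), and CSAG4 was listed at 0 in all 3 libraries. CSAG1 was the only one of the 7 to exceed 1 TPM in any library, with 1.03 TPM in replicate 2. Beyond MAGEA6 lie CETN2 with 66.0 ± 2.71 TPM and NSDHL with 61.3 ± 2.83 TPM (SD, n = 3), which are genes of the centrosome and of cholesterol synthesis.

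**Figure D4:**
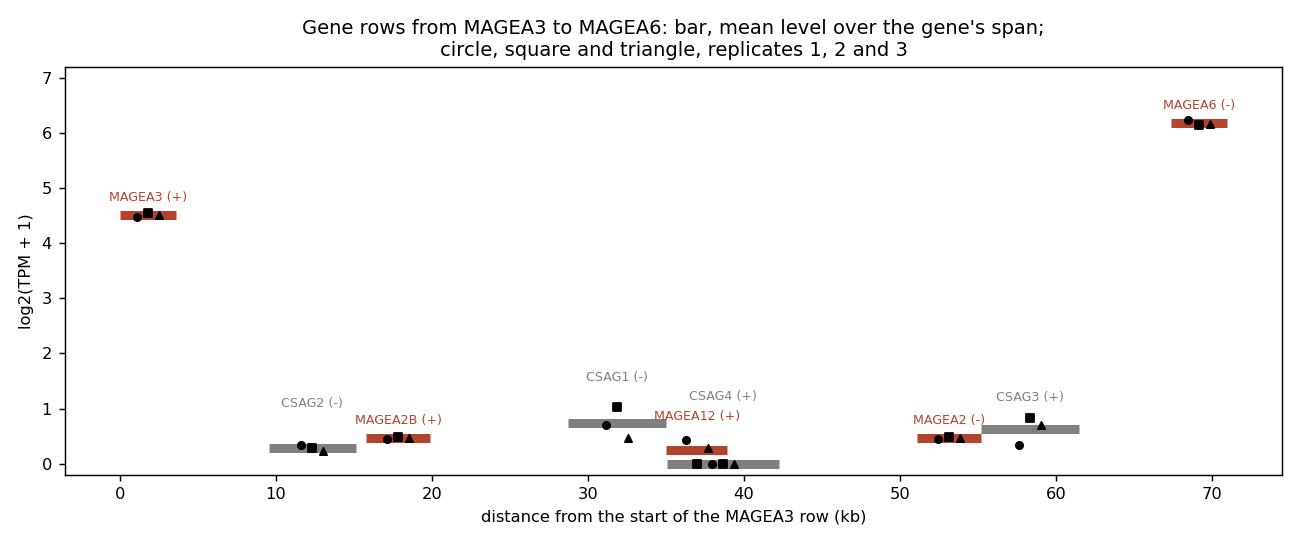
Gene rows between MAGEA3 and MAGEA6, with distance from the start of MAGEA3 in kb on the horizontal axis and log2(TPM + 1) on the vertical axis; bars give the mean over each gene's span, symbols the replicates, and signs in brackets the strand. MAGEA3 and MAGEA6 stand at the ends with 21.8 and 71.3 TPM, and MAGEA2B, MAGEA12, MAGEA2 and the CSAG genes between them are at low levels.

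The start sites of MAGEA3 and MAGEA6 also face a noncoding row on the opposite strand. MAGEA3-DT, listed under the name LOC105373370 at chrX:152554383-152698696, ends 45 bp before MAGEA3. It had 5.28, 7.19 and 8.97 TPM in replicates 1, 2 and 3, a mean of 7.15 ± 1.84 TPM (SD, n = 3). MAGEA6-DT, listed as LOC107985638 at chrX:152769787-152792170, lies 57 bp from MAGEA6 and had 0, 0.0814 and 0.00840 TPM. Of this pair, the row beside the lower MAGEA gene was thus the higher in each library. The nearest rows to MAGEA1 were PNMA6A, at 1.19 ± 0.146 TPM (SD, n = 3), 104264 bp before it and LOC105373373, at 0, 41768 bp after it. The row of SNORA11, a small nucleolar RNA of 131 bp, lies inside MAGED2, and it had 0.624 ± 0.486 TPM (SD, n = 3), from reads that MAGED2 could also have given.

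Promoters were taken from RefSeq (GRCh38.p14), as 250 bases before and 50 bases from each start site on, and 29 of 34 members had an entry. MAGEA1, MAGEA5, MAGEA10, MAGEB17 and MAGEH1 had none. The promoters of MAGEA3 and MAGEA6 were the same in all 300 bases, although their RNA differed 3.27-fold by TPM. Each held 19 CpG dinucleotides, the sites of DNA methylation, with an observed-to-expected ratio of 0.664. MAGEA2 and MAGEA2B, which were below 1 TPM, also had a promoter of 300 identical bases, with 17 CpG. Across type I members, with the entry of most CpG taken for each, the median was 13.5 and the highest 21. In type II, taken likewise, the median was 20 and the highest 26. Over all promoters the median was 14, but there every entry was counted, so the measures are unlike.

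The letters CCGGAA hold a CpG and the core of sites that bind Ets transcription factors, which are known to act on some MAGEA promoters. They were searched on both strands, as the only motif, and this search was chosen with the levels known. A match was found in 17.2% of the 35116 promoters. Among members with an entry, 4 of 4 with at least 1 TPM held a match, namely MAGEA3, MAGEA6, MAGED2 and MAGEF1, and so did 3 of 25 below 1 TPM, namely MAGEB6, MAGEB16 and MAGED1. MAGED2 held it in 1 of its 2 entries, chrX:54808096-54808395. Its other entry, chrX:54807495-54807794, covers the start of the MAGED2 row and held no match. Which start site of MAGED2 these libraries used was not tested. Counted by entry, like the share of all promoters, a match was in 4 of 5 entries of the expressed members and in 3 of 35 of the others, and the entries of MAGEA3 and MAGEA6 are 1 sequence. Windows of 30 bases around the match are shown for the expressed members, 5′ to 3′ on the strand of the gene, with the match in capitals. They lie at chrX:152698669-152698698 on the plus strand, chrX:152769785-152769814 on the minus strand, chr3:184712103-184712132 and chr3:184712049-184712078 on the minus strand and chrX:54808336-54808365 on the plus strand. Distances below run from the start site of the promoter entry to the first base of the match. The second match of MAGEF1, which begins 2 bases before that site, thus runs across it. The start site of an entry need not be the start of the gene row given above. A match is a run of letters and does not show that a factor binds.
MAGEA3, 113 bases before the start site: ttccacccctgcCCGGAAcccagggtagta
MAGEA6, 113 bases before the start site: ttccacccctgcCCGGAAcccagggtagta
MAGEF1, 56 bases before the start site: acccagaagggaCCGGAAaaggaggggctg
MAGEF1, 2 bases before the start site: tggctgaggtggCCGGAAgtggcccctcgc
MAGED2, from base 3 of the transcript, on the opposite strand: gggcgggaccacTTCCGGcctagagagggg

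The windows of MAGEA3 and MAGEA6 are alike, as their whole promoters are. MAGEF1 carried 2 matches, and 4.23% of all promoters carried at least 2.

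Genes with a MAGE domain but another kind of name were viewed beside the family. NSMCE3, a subunit of the SMC5/6 complex of DNA repair that was once called MAGEG1, had 20.8, 17.8 and 17.4 TPM in replicates 1, 2 and 3, a mean of 18.7 ± 1.85 TPM (SD, n = 3). MAGEL2 and NDN, imprinted genes of the Prader-Willi region, and TRO, which encodes trophinin, were listed at 0 in all 3 libraries. With these 4 genes added to type II, the log2 ratio of type I to type II was -0.26 ± 0.03 (SD, n = 3).

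Of 15 genes for known partners of MAGE proteins, 11 had at least 10 TPM in every library. The same 11 were the only ones to reach 1 TPM in every library. That is 73.3% of the list, beside 33.8% of all gene rows and 59.5% of RefSeq protein-coding genes. TRIM28, the ligase that binds MAGEA3, MAGEA6 and MAGEC2, was the highest with 305 ± 13.6 TPM (SD, n = 3). PRKAA1, the AMPK subunit that the ligase with MAGEA3 or MAGEA6 marks, had 66.7 ± 12.3 TPM, and DCAF12, through which these MAGE proteins are themselves degraded, had 23.9 ± 0.650 TPM (SD, n = 3). NSMCE1, the partner of MAGEF1 and NSMCE3, had 37.0 ± 6.68 TPM (SD, n = 3). TRIM31, PJA1 and LNX1 were among the partners below 1 TPM. PJA1, a partner of MAGED1, had 0.153 ± 0.0157 TPM and LNX1, a partner of MAGEB18, had 0.0945 ± 0.0501 TPM (SD, n = 3). Partner and MAGE gene did not always go together, since RAD18, the partner of MAGEA4, had 11.8 ± 0.912 TPM (SD, n = 3) while MAGEA4 was listed at 0.

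Cancer-testis genes outside the MAGE family were low for the most part. Of 60 listed, 12 reached 1 TPM in all 3 libraries (20.0%), beside 33.8% of all gene rows and 59.5% of RefSeq protein-coding genes. A further 45 were below 1 TPM in every library. Of the 60, 19 were listed at 0, beside 40.7% of all gene rows. Beside 45.4% of RefSeq protein-coding genes on chromosome X, 6 of the 48 listed genes there reached 1 TPM. These were PAGE1 with 269 ± 3.34 TPM, XAGE2 with 113 ± 7.56 TPM, PASD1 with 37.6 ± 1.92 TPM, CT83 with a mean of 24.0 TPM, CT45A10 with 15.1 ± 1.03 TPM and CT45A5 with 2.15 ± 0.150 TPM (SD, n = 3). PAGE1 thus exceeded MAGEA1, MAGEA3 and MAGEA6 in every library. On other chromosomes, 6 of 12 reached 1 TPM, not far from the 59.5% of RefSeq protein-coding genes. Of these 6, PBK, CEP55, KIF2C, OIP5 and TTK act in cell division. PRAME, with 20.3 ± 0.823 TPM (SD, n = 3), is a tumor antigen like the MAGE proteins. CTAG1A, CTAG1B and CTAG2, the genes of the NY-ESO-1 family, were below 1 TPM in every library.

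**Figure D5:**
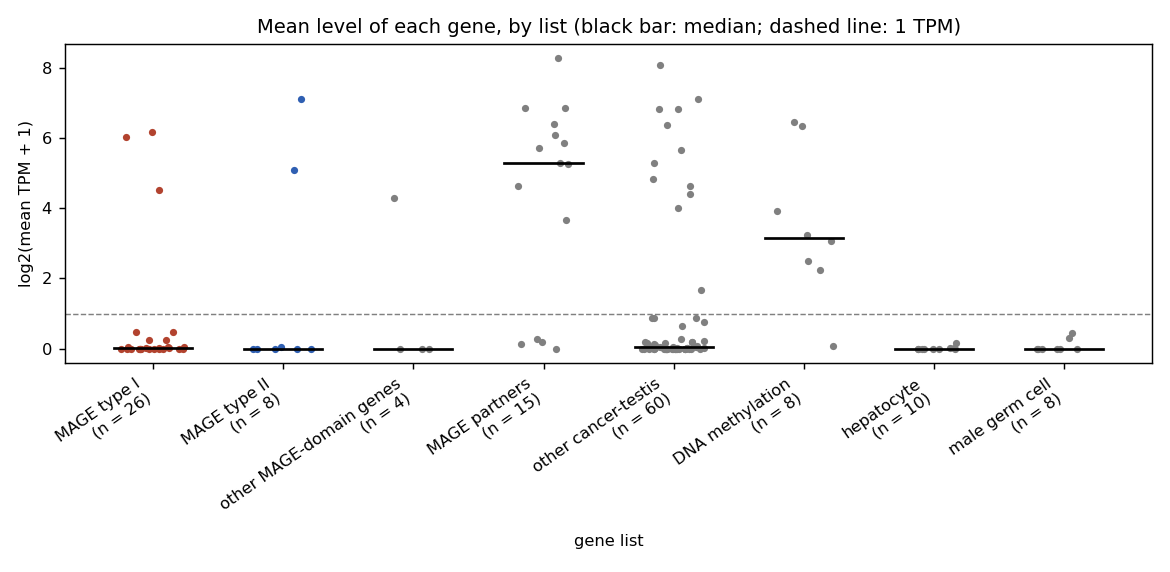
Mean level of each gene over 3 libraries as log2(mean TPM + 1) on the vertical axis, by gene list on the horizontal axis, with red and blue points for type I and type II MAGE genes, a black bar for each median and a dashed line at 1 TPM. Most MAGE partners lie above the line, while type I, type II and other cancer-testis genes have medians near 0 with a few members far above.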

How the data were processed

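RNA-seq of 3 libraries labelled wild-type HepG2 was used. Paired-end reads of 150 bp had been filtered by the authors (FastQC 0.11.8, Trim Galore 0.6.2), who aligned them to GRCh38 with STAR 2.6.1a. The submitters' processing notes also name StringTie. Annotation and strand setting are not given in the sources used here. Each deposited table holds 1 row per gene with coverage deposited by the authors (mean depth, a signal not scaled for library size), FPKM deposited by the authors and TPM deposited by the authors, which sums to the same total per library. No counts are given, so depth and counting error are unknown, and precision is the SD over 3 libraries.

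Rows with equal name, strand and place in all tables were kept, 43389 in all, of which 39320 were on whole chromosomes and the mitochondrial genome. TPM was used as deposited, with limits of 1 and 10 TPM and a pseudocount of 1 on the log2 scale. All rows that met the name rule are named, and lists of MAGE partners, cancer-testis, methylation and marker genes are reported by counts; 1 gene of the partner list is not reported here by name. Members and lists were chosen with earlier results of these data known. Range and sign-flip calculations were tested on simulated data. Transcripts were from GENCODE v44 and promoters from RefSeq. Coding sequences were aligned globally, and identity was taken over all columns, gaps included. Alternatives were each replicate left out, other limits and pseudocounts, coverage, median-of-ratios scaling, scaling without mitochondrially encoded genes and added type II genes. Python 3.11.15, numpy 2.4.6, pandas 2.3.3, Biopython 1.88 and matplotlib 3.10.9 were used.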

Additional observations from a re-analysis of the deposited data

How the results depend on the processing

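No paired analysis was possible because all 3 libraries belong to a single group, so that none could be paired across groups; the ratio of the types was taken within each library. The log2 ratio of type I to type II, -0.11 by TPM, reversed to 0.16 by coverage, and the type I share of the family's TPM moved from 48.1% to 52.7% by coverage. With NSMCE3, MAGEL2, NDN and TRO added to type II, the share was 45.5%. The difference of the means of log2(TPM + 1) over members, type I minus type II, was -0.82, and a pseudocount of 0.1 gave a ratio of -0.11. Scaling by library multiplies both sums alike, so leaving out mitochondrially encoded genes and median-of-ratios scaling bear on levels and not on this ratio. With each replicate left out it ranged from -0.12 to -0.10 and the share from 48.0% to 48.3%. The type I genes counted as expressed rose from 3 to 5 with a minimum of 0.1 TPM, through MAGEA2 and MAGEA2B, and were 3 under every other alternative run, while the type II count was 2 under each. Members with a range above 1 numbered 0 under each alternative. Scaling without mitochondrially encoded genes multiplies all other rows of a library by the same factor. It raised the mean TPM of MAGED2 1.25-fold, as an example of this shared rise. The cause of the change by coverage was not tested. The unknown depth limits all 18 members listed at 0.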

Other observations

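RNA of the genes that maintain DNA methylation, the mark known to keep type I MAGE promoters silent, was detected in every library. UHRF1, which recruits the maintenance methyltransferase to newly copied DNA, had 89.8, 88.5 and 83.3 TPM in replicates 1, 2 and 3, and DNMT1, that methyltransferase, had 81.4, 79.5 and 77.4 TPM. The de novo enzymes DNMT3A and DNMT3B had 8.40 ± 0.661 and 7.43 ± 0.548 TPM (SD, n = 3), and their cofactor DNMT3L had 4.63 ± 0.555 TPM (SD, n = 3). Of the TET enzymes, which oxidise methylated cytosine, TET3 had 14.0 ± 1.12 TPM, TET2 3.75 ± 0.315 TPM and TET1 0.0639 ± 0.00658 TPM (SD, n = 3). Methylation itself was not measured.

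Markers of male germ cells, in which type I MAGE genes are normally active, were low. All 8 on the list were below 1 TPM in every library, while 33.8% of all gene rows reached that level in each. Of the 8, 6 were listed at 0, among them DDX4 and DAZL, beside 40.7% of all gene rows. The summed level of the list was 0.273 to 0.761 TPM per library. ACRV1 had 0.363 ± 0.162 TPM and SYCP3 0.225 ± 0.126 TPM (SD, n = 3). Of 4 markers of pluripotent cells, POU5F1 had 4.35 ± 0.199 TPM (SD, n = 3), and NANOG, LIN28A and DPPA4 were listed at 0 in all 3 libraries.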
